A study of Homo sapiens with 6 samples.

Results

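Respiratory complex I is the NADH:ubiquinone oxidoreductase of the mitochondrial inner membrane. Its subunit genes were followed in MIA PaCa-2, an established cell line from a human pancreatic ductal carcinoma, with and without triptolide. Members were taken from the deposited count table by gene symbol, 41 of its 35716 genes, of which 34 are nuclear genes (names beginning NDUF) and 7 are mitochondrially encoded (names beginning MT-ND). Of the 41, 40 passed the filter on low counts and were tested, and NDUFA7 did not. Both groups are labelled wild type and were kept for 24 h, 3 libraries each. The untreated cells (labelled NC) were in DMEM with 10% serum, and the treated cells (labelled TPL) received 10 nM triptolide, a plant diterpenoid known to target XPB, a subunit of the general transcription factor TFIIH. The design text calls the treated cells a control group, and groups follow the treatment label here. Nothing in the labels says that a group's libraries were grown separately, and a p-value here therefore reflects library-to-library spread that may be technical. In bulk RNA, fewer cells of a type and less RNA per cell cannot be told apart.

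Complex I takes electrons from NADH, passes them along iron-sulfur clusters to ubiquinone and pumps protons across the inner membrane. Its NADH-oxidising N module and ubiquinone-reducing Q module form the matrix arm, which is nuclear encoded, while the proton-pumping subunits at the core of the membrane arm come from mitochondrial DNA. The membrane arm has a proximal part beside the Q module and a distal part at its far end. The nuclear genes are transcribed by RNA polymerase II, which TFIIH serves, and the mitochondrial genes by a separate polymerase, POLRMT, from long transcripts that are then cut apart.

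Total counts ran from 16302961 to 23262713 per library. Every pair of libraries differed by more than sampling noise. The chi-square per degree of freedom over genes was 4.96 between untreated replicates 1 and 2, the lowest within a group, and at most 61.9, and it ran from 27.6 to 78.4 between groups. Defining markers were mixed. The 6 carcinoma markers summed to 4383 to 6527 CPM (counts scaled by the TMM-adjusted library size) in untreated and 3241 to 3950 CPM in triptolide libraries, with KRT18 and VIM lower, and EPCAM at 0.166 CPM or less in every library. All 11 tested of 12 trophoblast markers were higher with triptolide, their sums going from 8.48 to 9.31 CPM to 535 to 902 CPM, and HSD3B1 and PLAC1 were at 0 in the untreated libraries. The 8 blood markers summed to 2.99 to 4.04 and 12.4 to 24.4 CPM (4 of 5 tested higher, HBG1 and HBG2 at 0 untreated), and the 10 fibroblast markers to 448 to 538 and 310 to 422 CPM (4 of 8 tested lower, FAP at 0 with triptolide). The part of these markers in the complex I values was not tested.

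Few complex I genes passed the test between the groups. At an adjusted p under 0.05 in edgeR's quasi-likelihood test, adjusted over all 15202 tested genes, 1 of 40 tested members fell with triptolide and 0 rose (0 fell and 0 rose in DESeq2, 1 and 0 in limma-voom), where 15.9% of all tested genes passed (10.0% higher and 5.82% lower). Of all genes past the threshold, 63.3% were higher, and the share was 73.8% with library totals alone, 90.3% with ribosomal protein scaling and 52.6% with a GC offset per library. The member that fell was NDUFV2, one of the least abundant. At an unadjusted p under 0.05 there were 3 members, MT-ND4L on the higher side and NDUFV2 and NDUFB3 on the lower, against 30.9% of all genes. The groups did not overlap in 2 members, NDUFV2 and MT-ND4L, against 36.7% of all genes. Of the 33 tested nuclear members, 31 had fitted values within 1.5-fold. The median standard error of the nuclear members was 0.21 on the log2 scale. A member that missed the threshold is not shown to be unchanged, and differences several times that error can be missed.

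Nuclear and mitochondrially encoded members leaned to opposite sides. The median log2 fold change (triptolide minus untreated) was -0.13 over the 33 tested nuclear members, 26 of them negative, and 0.14 over the 7 mitochondrially encoded members, 5 of them positive, where the median of all tested genes was -0.004. Each median turned with 1 library. Without untreated replicate 3 the nuclear median was 0.013, and without triptolide replicate 2 the mitochondrial median was -0.13. With scaling on ribosomal protein genes, which moved the median of all tested genes to 0.17, the nuclear median was 0.051, or -0.12 relative to all genes. With that scaling the medians of the N module (0.10), Q module (0.015) and proximal membrane arm (0.15) were also positive, the distal membrane arm stayed negative (-0.047), and with library totals alone the proximal arm turned (0.024).

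**Figure D1:**
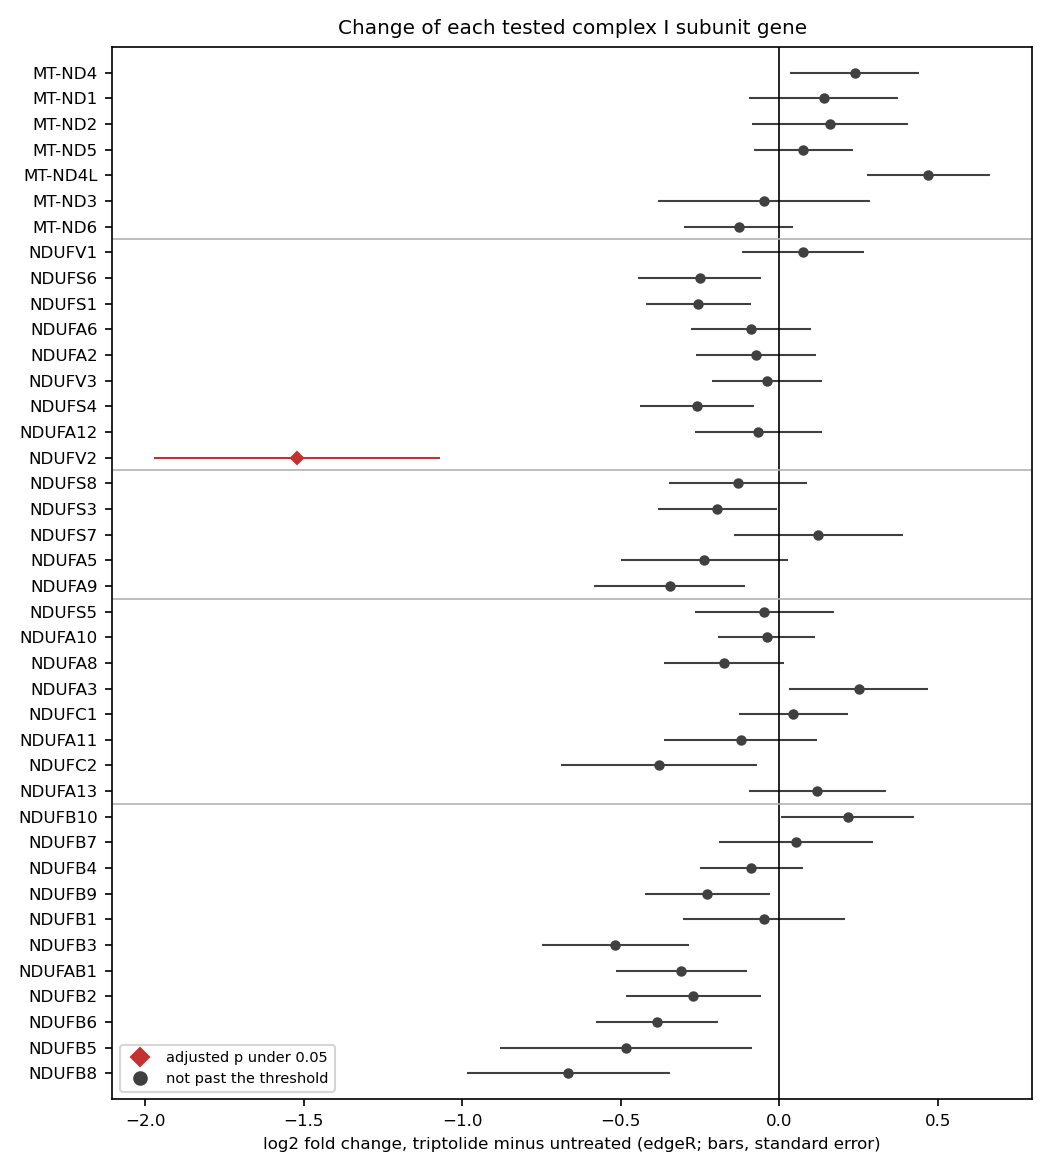
Log2 fold change of each tested complex I gene on the horizontal axis, triptolide minus untreated, with the standard error as a bar and 3 libraries per group. From top to bottom the blocks are mitochondrially encoded, N module, Q module, proximal and distal membrane arm. NDUFV2 at -1.52 is the one value past the threshold, and the other members lie between -0.67 and 0.47.

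CPM values are given for replicates 1, 2 and 3 of each group in that order. In the N module, 9 of 10 members were tested, with a median log2 fold change of -0.09 and 8 negative values. NDUFV1 (ENSG00000167792) binds the flavin that takes electrons from NADH. It stood at 175, 191 and 237 CPM untreated and at 266, 183 and 186 CPM with triptolide. The groups overlapped, with triptolide replicate 1 highest (log2 fold change 0.08 ± 0.19 SE, adjusted p = 0.826). NDUFS1 (ENSG00000023228), the largest iron-sulfur subunit, was measured at 128, 122 and 95.5 CPM untreated and at 89.2, 97.1 and 103 CPM with triptolide. Here untreated replicate 3 was the lowest of its group and lay among the triptolide libraries (-0.26 ± 0.17, adjusted p = 0.325). The other tested accessory and iron-sulfur-linked members of this module (NDUFA2, NDUFA6, NDUFA12, NDUFS4, NDUFS6 and NDUFV3) lay between -0.26 and -0.04.

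NDUFV2 (ENSG00000178127) carries an iron-sulfur cluster beside the flavin subunit. It had 0.561, 1.16 and 1.10 CPM untreated and 0.126, 0.438 and 0.359 CPM with triptolide, or 51 counts in all against 21. Every triptolide library was below every untreated one (-1.52 ± 0.45, adjusted p = 0.0388). It passed the low-count filter through the untreated libraries only, since 3 untreated and 0 triptolide libraries reached the minimum of 0.529 CPM. The call was lost with DESeq2 (adjusted p = 0.0532), library totals (0.0544) and ribosomal protein scaling (0.127), and without untreated replicate 2 or 3 or triptolide replicate 1 or 3 (0.0855 to 0.140); over all its alternatives the adjusted p ran from 0.00851 to 0.140.

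In the Q module the 5 members had a median of -0.20, and none passed, also not at an unadjusted p under 0.05, in DESeq2 or in limma-voom. Its core subunits NDUFS3, NDUFS7 and NDUFS8 line the path to the ubiquinone site, NDUFS7 and NDUFS8 with iron-sulfur clusters. NDUFS3 (ENSG00000213619) stood at 68.8, 76.1 and 107 CPM untreated and at 79.1, 72.5 and 68.0 CPM with triptolide (-0.20 ± 0.19, adjusted p = 0.515). NDUFS7 (ENSG00000115286) had 32.2, 35.9 and 50.1 CPM untreated and 62.7, 29.7 and 36.6 CPM with triptolide (0.12 ± 0.27, adjusted p = 0.793). NDUFS8 (ENSG00000110717), the most abundant of the module, had 91.7, 94.7 and 126 CPM untreated and 128, 81.4 and 76.2 CPM with triptolide (-0.13 ± 0.22, adjusted p = 0.726). In NDUFS7 and NDUFS8 triptolide replicate 1 stood above both other treated libraries by a wide margin, and the groups overlapped in all 3 genes. The accessory subunit gene NDUFA9 (ENSG00000139180), whose protein holds a bound nucleotide, had 18.1, 17.8 and 28.9 CPM untreated and 22.0, 14.9 and 14.3 CPM with triptolide. Triptolide replicate 1 lay inside the untreated range (-0.35 ± 0.24, adjusted p = 0.356). NDUFA5 was at -0.24 ± 0.26.

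In the proximal membrane arm all 8 members were tested, with a median of -0.04, and none passed by any of these either. NDUFS5 (ENSG00000168653), an accessory subunit on the intermembrane-space side, was the most abundant nuclear member. It stood at 274, 323 and 489 CPM untreated and at 374, 387 and 290 CPM with triptolide, so that the treated libraries fell inside the untreated range (-0.05 ± 0.22, adjusted p = 0.908). NDUFA3 (ENSG00000170906), a small membrane subunit, had 54.5, 54.2 and 84.0 CPM untreated and 93.8, 75.9 and 59.6 CPM with triptolide (0.25 ± 0.22, adjusted p = 0.478), the highest log2 fold change among the nuclear members. NDUFC2 (ENSG00000151366) had 7.46, 8.09 and 14.5 CPM untreated and 4.98, 10.8 and 7.19 CPM with triptolide (-0.38 ± 0.31, adjusted p = 0.441). The groups overlapped in both. The other members NDUFA8, NDUFA10, NDUFA11 and NDUFC1 lay between -0.18 and 0.04, and NDUFA13 is given with the scarce members.

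The distal membrane arm held the lowest median of the 4 nuclear groups, -0.27, with 9 of 11 members negative and none past the threshold in edgeR, DESeq2 or limma-voom (1 at an unadjusted p under 0.05, NDUFB3); the differences between groups of subunits were not tested. NDUFB3 (ENSG00000119013), a single-span accessory subunit, had 49.1, 48.9 and 73.5 CPM untreated and 30.5, 53.0 and 36.2 CPM with triptolide. Triptolide replicate 2 stood above untreated replicates 1 and 2 (-0.52 ± 0.23, adjusted p = 0.155). Without that library the log2 fold change was -0.76 and the adjusted p 0.0367, and over its alternatives the adjusted p ran from 0.0367 to 0.586. NDUFB10 (ENSG00000140990), the most abundant of the arm, had 132, 145 and 178 CPM untreated and 235, 154 and 139 CPM with triptolide, with triptolide replicate 1 alone above the untreated range (0.22 ± 0.21, adjusted p = 0.527). The acyl carrier protein gene NDUFAB1 was at -0.31 ± 0.21, and NDUFB1, NDUFB2, NDUFB4, NDUFB5, NDUFB6, NDUFB7 and NDUFB9 lay between -0.48 and 0.05.

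The nuclear members shared an order of libraries. Untreated replicate 3 was the highest of the 3 untreated libraries in 31 of the 34, and the highest of all 6 libraries in 21. Triptolide replicate 3 was the lowest library in 11 members. Triptolide replicate 1 was the highest in 8 and the lowest in 9, in an order described with the base composition of the genes.

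**Figure D2:**
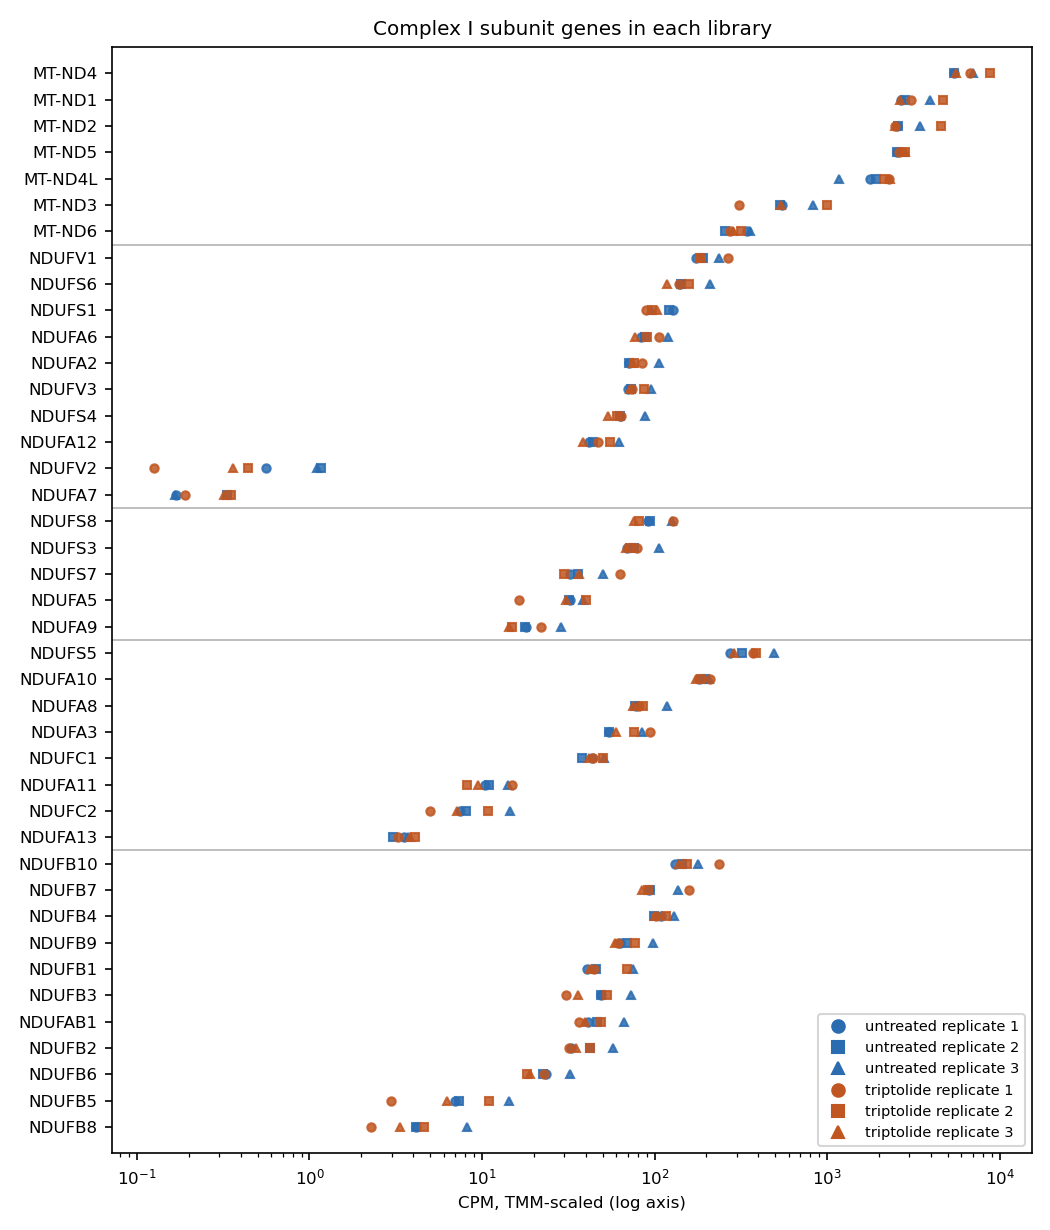
Level of each complex I gene in each library, in TMM-scaled CPM on a log axis, grouped as mitochondrially encoded, N module, Q module, proximal and distal membrane arm from top to bottom. Colour marks the treatment and shape the replicate number. Untreated replicate 3 (blue triangle) is the highest untreated library in 31 of 34 nuclear genes.

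None of the 7 mitochondrially encoded members passed the threshold in edgeR, DESeq2 or limma-voom, and the mean CPM of 6 of them stood above that of every nuclear member. In single libraries this did not always hold, since MT-ND3 was below NDUFS5 in triptolide replicate 1. MT-ND4 (ENSG00000198886), a proton-pumping subunit of the membrane arm, stood at 5468, 5467 and 6996 CPM untreated and at 6712, 8824 and 5596 CPM with triptolide (0.24 ± 0.20, adjusted p = 0.466). MT-ND1 (ENSG00000198888), at the joint of the arms beside the ubiquinone site, had 2674, 2844 and 3952 CPM untreated and 3062, 4714 and 2659 CPM with triptolide (0.14 ± 0.23, adjusted p = 0.730). MT-ND2 (ENSG00000198763), another pump subunit, had 2533, 2580 and 3443 CPM untreated and 2485, 4591 and 2487 CPM with triptolide (0.16 ± 0.25, adjusted p = 0.702). In all 3, triptolide replicate 2 was the highest library and the treated values lay on both sides of untreated replicate 3. MT-ND5 (ENSG00000198786), the pump at the far end of the arm, varied least, with 2557, 2529 and 2742 CPM untreated and 2616, 2815 and 2820 CPM with triptolide (0.08 ± 0.15, adjusted p = 0.782). MT-ND3 (ENSG00000198840), a short subunit near the ubiquinone site, had 545, 535 and 830 CPM untreated and 310, 993 and 543 CPM with triptolide. Its lowest and highest libraries were both treated ones (-0.05 ± 0.33, adjusted p = 0.939).

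MT-ND6 (ENSG00000198695) is the complex I gene on the other strand of mitochondrial DNA. Its transcript is reported to lack a regular poly(A) tail, and these libraries were captured by oligo(dT). It had 343, 256 and 359 CPM untreated and 275, 318 and 284 CPM with triptolide (-0.13 ± 0.17, adjusted p = 0.656), with the treated values inside the untreated range. Its counts were 10.1% to 13.4% of those of MT-ND5 in the untreated libraries and 10.1% to 11.3% in the triptolide libraries. The 2 genes share no bases in GENCODE 29. The labels do not say whether reads were counted by strand. Whether the MT-ND6 counts include reads of the opposite strand was not tested.

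MT-ND4L (ENSG00000212907) was the one mitochondrially encoded member whose groups did not overlap. It had 1783, 1910 and 1179 CPM untreated and 2283, 2150 and 2314 CPM with triptolide, so that every treated library was above every untreated one, untreated replicate 3 being far the lowest. The log2 fold change was 0.47 ± 0.20 with an adjusted p of 0.125 in edgeR; without untreated replicate 3 it was 0.27. With a GC offset per library it was 0.59 and the adjusted p 0.0392, where its other alternatives gave 0.0850 to 0.296. MT-ND4L and MT-ND4 are read from a shared messenger RNA, and their reading frames overlap. The end of the first and the start of the second are shown because the counts of the pair depend on how reads over this stretch were assigned; the capitals mark the 7 bases that belong to both (GENCODE 29 transcripts, the last 30 and the first 30 bases).

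MT-ND4L: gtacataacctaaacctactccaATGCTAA
MT-ND4: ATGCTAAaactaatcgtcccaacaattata

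Although they share a messenger RNA, the ratio of their counts was not constant. MT-ND4L counts were 32.6%, 34.9% and 16.8% of MT-ND4 counts in the untreated libraries and 34%, 24.4% and 41.3% in the triptolide libraries. The groups overlapped, and untreated replicate 3 was the lowest. Per kb of coding length MT-ND4L had the highest level of the 7, 5524 ± 1329 CPM per kb untreated and 7650 ± 295 with triptolide (SD, n = 3), and MT-ND4 had 4337 ± 640 and 5112 ± 1190. MT-ND6 was the lowest on that scale at 608 ± 105 and 557 ± 42.7, and NDUFS5 at 1138 ± 356 and 1102 ± 167 CPM per kb was above it. The counts are per gene and not confined to coding bases. NDUFS5 has 318 coding bases in a transcript of 548, and MT-ND6 has 525 in 525. The gap between nuclear and mitochondrial genes on this scale therefore depends on the length used. Nuclear pseudogene copies named MTND, which share sequence with the mitochondrial genes, held counts equal to 0.550% to 0.850% of the MT-ND counts. The copy with the most, MTND2P28, had 5169 raw counts untreated and 8372 with triptolide, not scaled for depth. By library these were 1671, 1671 and 1827 untreated and 1307, 4294 and 2771 with triptolide. This copy was singled out after its values were seen.

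Summed over members, nuclear complex I genes held 0.230%, 0.236% and 0.298% of the counts in the untreated libraries and 0.266%, 0.257% and 0.234% with triptolide. The means were 0.255% ± 0.0375 and 0.253% ± 0.0163 (SD, n = 3), a difference smaller than the spread. The MT-ND genes held 1.61%, 1.6% and 1.81% untreated and 1.73%, 2.47% and 1.80% with triptolide, means of 1.67% ± 0.116 and 2.0% ± 0.412. Triptolide replicate 2 stood apart and the other treated libraries lay within the untreated range. The MT-ND counts per NDUF count were 7.02, 6.75 and 6.06 untreated and 6.50, 9.61 and 7.67 with triptolide, means of 6.61 ± 0.496 and 7.93 ± 1.57. On the log2 scale the ratio was 2.72 ± 0.11 and 2.97 ± 0.28, and the groups overlapped. The difference, 0.25, was 0.097 without triptolide replicate 2 and between 0.18 and 0.38 without any other library. The same ratio for the genes of complexes II to V was 4.22 ± 0.308 and 5.18 ± 0.711, a log2 difference of 0.29 beside the 0.25 of complex I. It was 4.45, 4.34 and 3.87 untreated and 4.74, 6.0 and 4.80 with triptolide, so that there, unlike in complex I, every treated library was above every untreated one. Triptolide replicate 2 was the highest library in both ratios. The difference between the ratios of complex I and of complexes II to V was not tested.

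**Figure D3:**
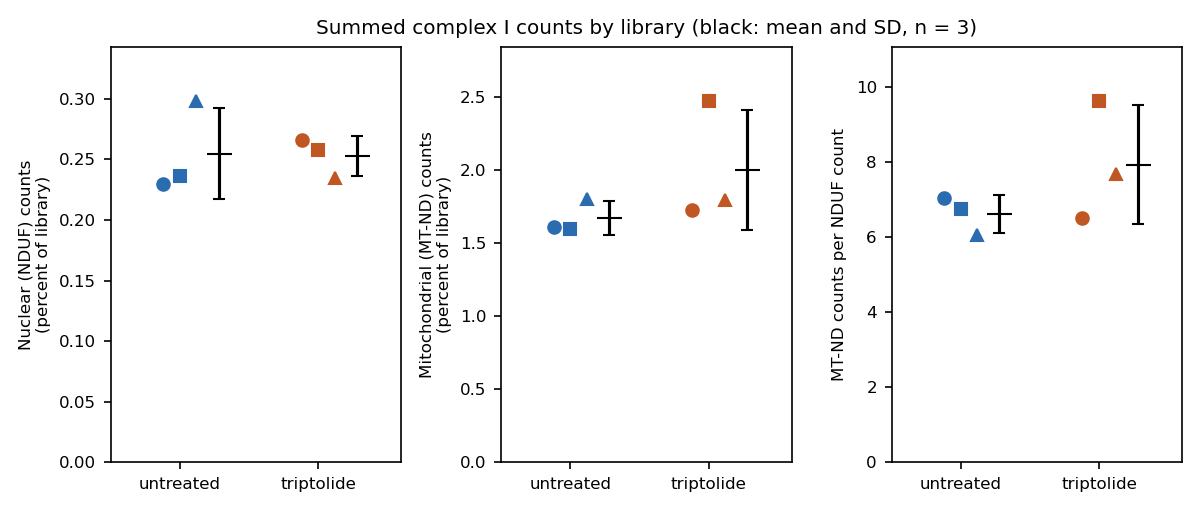
From left to right, the share of library counts in nuclear complex I genes, the share in mitochondrially encoded ones, and the MT-ND counts per NDUF count, for each library by treatment, with the mean and SD of 3 libraries in black. Triptolide replicate 2 (square) is the highest in the middle and right panels at 2.47% and 9.61, and the groups overlap in all panels.

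The spread of the nuclear members within the treated group followed base composition. GC content of the members' transcripts ran from 36.4% in NDUFA5 to 66.5% in NDUFS7 (GENCODE 29, median 48.2%). The first 90 coding bases are shown, with G and C in capitals, for the tested nuclear members with the lowest GC content over the coding sequence, NDUFA5 and NDUFB3, and with the highest, NDUFB7 and NDUFS7, to make the difference visible. By the whole transcript, NDUFB3 (44.1%) was not at the end of the scale.

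NDUFA5: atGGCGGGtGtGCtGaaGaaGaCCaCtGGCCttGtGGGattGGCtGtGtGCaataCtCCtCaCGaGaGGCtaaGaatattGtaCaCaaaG
NDUFB3: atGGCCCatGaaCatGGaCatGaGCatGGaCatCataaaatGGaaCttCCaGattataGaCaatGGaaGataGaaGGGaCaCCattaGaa
NDUFB7: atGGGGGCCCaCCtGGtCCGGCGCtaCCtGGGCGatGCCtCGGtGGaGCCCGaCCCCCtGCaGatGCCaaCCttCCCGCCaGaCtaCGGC
NDUFS7: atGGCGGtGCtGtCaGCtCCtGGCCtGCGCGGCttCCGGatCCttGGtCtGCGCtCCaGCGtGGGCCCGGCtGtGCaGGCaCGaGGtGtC

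Over the whole coding sequence the GC content was 42.5%, 42.9%, 65.9% and 66.2% in this order. In triptolide replicate 1 the first 2 of these genes were at their lowest of all 6 libraries, 16.4 CPM for NDUFA5 and 30.5 CPM for NDUFB3, and the other two at their highest, 158 CPM for NDUFB7 and 62.7 CPM for NDUFS7. Not every member poor in GC was low there: NDUFB6 (41.7%), NDUFS4 (42.8%) and NDUFA9 (43.6%) were lowest in other libraries, and NDUFA9 had its second highest value in triptolide replicate 1. Nor was every member rich in GC high there. NDUFB8 (54.7%) had its lowest value in triptolide replicate 1. NDUFA13 (61.6%) and NDUFB9 (53.7%), for example, were below their mean log2 CPM in it (-0.12 and -0.19). Across the 33 tested nuclear members, the correlation of a library's deviation from the gene's mean with GC content was 0.61 in triptolide replicate 1 and between -0.47 and -0.01 in the other 5 libraries. Over 15077 tested genes with a GC value it was 0.58 in triptolide replicate 1 and between -0.31 and 0.03 elsewhere, so the tilt was shared with genes in general. These are correlations across genes that share a library, given as a description.

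The members' fold changes carried that tilt. Across the 33 members, Spearman's rho of the log2 fold change with GC content was 0.58. Pearson's r, the measure used for the libraries, was 0.41. Over all tested genes with a GC value the rho was 0.23. The members' rho for the plain log2 CPM difference was 0.59 with all libraries and -0.016 without triptolide replicate 1. Of the 16 members above the median GC, 6 had positive log2 fold changes and the median was -0.08, while of the 17 others 1 was positive and the median was -0.26. Of the 7 positive members, NDUFA3, NDUFB7, NDUFB10, NDUFS7 and NDUFV1, with values from 0.05 to 0.25, were all highest in triptolide replicate 1.

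**Figure D4:**
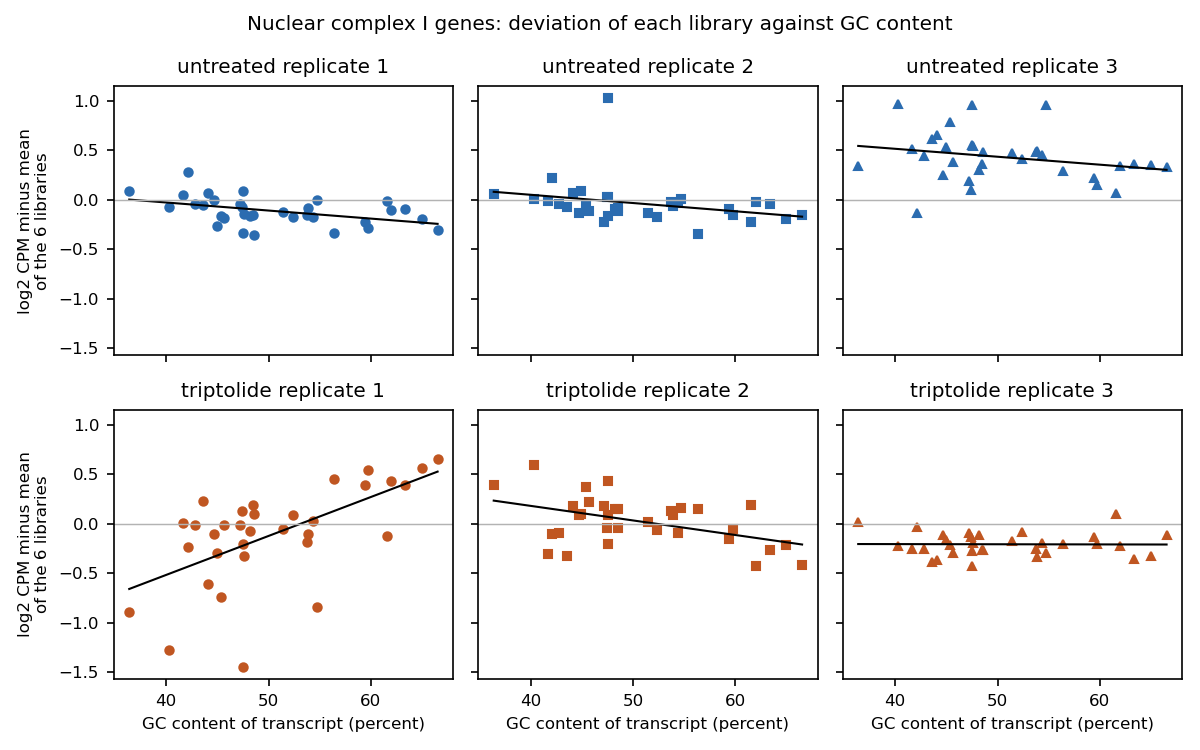
Each panel is a library and each point one of the 33 tested nuclear complex I genes, with the GC content of its transcript on the horizontal axis and its log2 CPM minus the gene's mean over the 6 libraries on the vertical axis; lines are least-squares fits. The line rises in triptolide replicate 1 (r = 0.61) and in no other library, and the points of untreated replicate 3 lie mostly above 0.

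Some members were scarce, among them subunits that complex I requires in every cell. A mean under 5 CPM was found in 4 of the 34 nuclear genes. NDUFA7 (ENSG00000267855), an accessory subunit of the matrix arm, had 3, 6 and 3 counts untreated and 3, 8 and 8 with triptolide and was not tested. NDUFA13 (ENSG00000186010), an accessory subunit also known as GRIM-19, had 3.53, 3.05 and 3.74 CPM untreated and 3.27, 4.07 and 3.83 CPM with triptolide (0.12 ± 0.22, adjusted p = 0.751). NDUFB8 (ENSG00000166136), a membrane subunit often used as a protein marker of assembled complex I, had 4.15, 4.16 and 8.15 CPM untreated and 2.27, 4.64 and 3.35 CPM with triptolide (-0.67 ± 0.32, adjusted p = 0.182). Triptolide replicate 2 was above the untreated replicates 1 and 2. The fourth was NDUFV2.

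Scarcity went with overlap in the annotation. In GENCODE 29, 6 nuclear members share over 50% of their coding bases with exons of other genes: NDUFB8 (85.2%), NDUFV2 (84.7%), NDUFA7 (78.3%), NDUFC2 (76.9%), NDUFA9 (67.9%) and NDUFA13 (55.2%). Their mean levels ran from 0.254 to 19.3 CPM with a median of 4.02, where the other 28 ran from 8.13 to 356 CPM with a median of 75.0. NDUFB5, with no such overlap, was the lowest of those 28. How reads lying in several genes were counted is not given in the sources used here, and its part in these levels was not tested. The counts of NDUFV2 and its relatives, chosen after their values were seen, moved in different directions: the pseudogene NDUFV2P1 had 190 counts untreated and 122 with triptolide, and the antisense gene NDUFV2-AS1 had 28 and 104. These are raw counts, not scaled for depth. With so few counts the value for NDUFV2 is uncertain as a measure of its messenger RNA. The part of its relatives in that value was not tested.

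**Figure D5:**
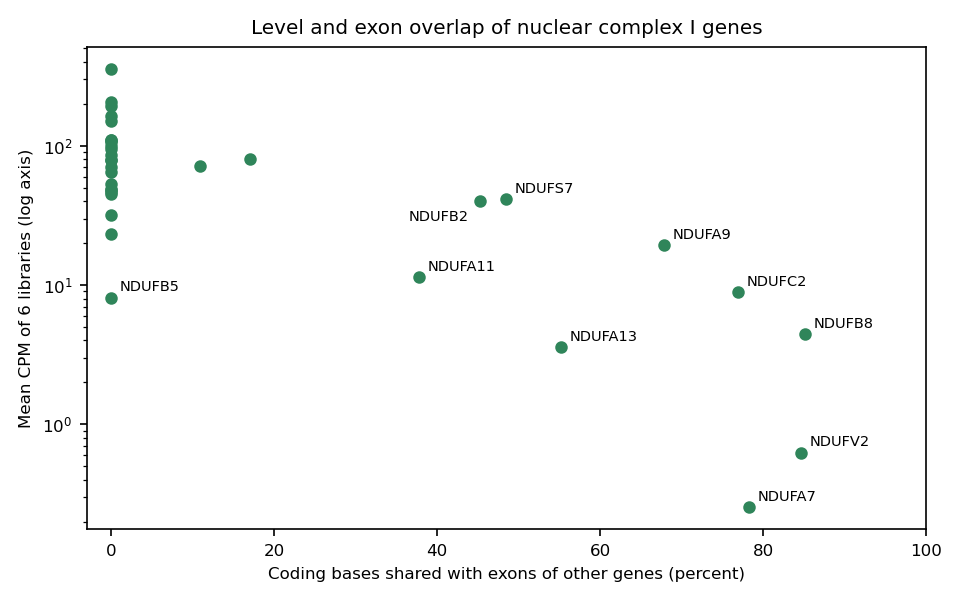
Mean CPM over the 6 libraries (log axis) of the 34 nuclear complex I genes against the share of their coding bases that lies in exons of other genes in GENCODE 29, each point a gene. The 6 genes past 50% overlap have means of 0.254 to 19.3 CPM, and NDUFB5 at 8.13 CPM is the lowest of those with none.

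Promoters of nuclear respiratory genes are known for sites of the factors NRF1, GABP (of the ETS family) and YY1. The 250 bases before the start were available for 30 of the 34 nuclear members (RefSeq, GRCh38.p14) and were searched on both strands. The NRF1 letters GCGCNTGCG were found in 10 of 30 (33.3%), against 6.86% of 27305 promoters, in NDUFA3, NDUFA5, NDUFA6, NDUFA9, NDUFA11, NDUFA12, NDUFB4, NDUFC1, NDUFS6 and NDUFS7. The share depends on the form searched: a form 1 base longer at its right end, which was searched first, was in 5 of 30 (16.7%), against 5.34%, and the shorter form was taken after that count was seen. The ETS letters CCGGAAG were in 3 of 30 (10%), against 8.78%, in NDUFA13, NDUFB7 and NDUFS3. The YY1 letters AAGATGGCG were in 0 of 30, against 0.615%, and a form 1 base longer also in 0, against 0.363%. With shares this low, 0 of 30 does not set the members apart, and bases after the start were not searched. No base is shared between these motifs in a promoter shown here. The most abundant member with each of the found motifs is shown, with the motif in capitals; NDUFS6 (chr5:1801157-1801406, plus strand) has NRF1 letters once and NDUFB7 (chr19:14572067-14572316, minus strand) has ETS letters once. A match is a description of the letters and not a site.

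NDUFS6: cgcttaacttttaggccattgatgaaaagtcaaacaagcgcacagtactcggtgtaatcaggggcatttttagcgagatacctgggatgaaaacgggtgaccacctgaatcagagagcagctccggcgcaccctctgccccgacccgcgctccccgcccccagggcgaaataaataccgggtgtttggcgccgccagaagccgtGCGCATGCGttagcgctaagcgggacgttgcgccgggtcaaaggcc
NDUFB7: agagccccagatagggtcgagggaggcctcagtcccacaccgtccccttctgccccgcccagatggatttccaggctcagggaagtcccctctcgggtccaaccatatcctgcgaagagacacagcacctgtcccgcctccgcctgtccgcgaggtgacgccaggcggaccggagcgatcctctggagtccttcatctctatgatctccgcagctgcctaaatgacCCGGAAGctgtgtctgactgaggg

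Neither of these genes passed the threshold. NDUFS6 (ENSG00000145494), a zinc-binding accessory subunit of the N module, had 140, 143 and 210 CPM untreated and 139, 158 and 118 CPM with triptolide (-0.25 ± 0.19, adjusted p = 0.416). NDUFB7 (ENSG00000099795) had 93.0, 93.6 and 136 CPM untreated and 158, 92.1 and 85.1 CPM with triptolide (0.05 ± 0.24, adjusted p = 0.909). The groups overlapped in both.

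Genes that build complex I, or that copy or express mitochondrial DNA, changed in places. The lists covered complex I assembly, mitochondrial transcription with DNA replication, and mitochondrial RNA processing and decay. Of their 52 tested genes 8 fell (15.4%, against 5.82% of all tested genes) and 0 rose. The count that fell was 12 with DESeq2, 7 with limma-voom, 3 with library totals alone and 0 with ribosomal protein scaling. In each of these 0 rose. Over all 15202 tested genes 1123, 899, 594 and 128 fell in this order, against 884 in the reported fit. Among 20 assembly genes 3 fell, with a median log2 fold change of -0.20. TMEM126A (ENSG00000171202), an assembly factor of the membrane arm, fell from 8.36, 11.3 and 17.7 CPM to 4.09, 7.92 and 5.15 CPM (-1.11 ± 0.30, adjusted p = 0.0268). ECSIT (ENSG00000130159), of the mitochondrial complex I assembly complex, fell from 36.1, 41.3 and 46.4 CPM to 30.8, 24.1 and 23.3 CPM (-0.66 ± 0.18, adjusted p = 0.0268). The groups did not overlap in either gene, nor in 36.7% of all tested genes. Both were named because they passed the threshold, so this adds no separate support. TMEM126A was not past the threshold without untreated replicate 3 or triptolide replicate 1 or 3 (adjusted p of 0.0739 to 0.0976), nor ECSIT without untreated replicate 2 or 3 or triptolide replicate 2 or 3 (0.0636 to 0.121). The third was NDUFAF5, at -0.67.

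Of 14 genes listed for mitochondrial transcription, which include the DNA replication genes POLG, POLG2, TWNK and SSBP1, 2 fell, with a median of -0.33. TFB1M (ENSG00000029639), a methyltransferase of the small mitochondrial rRNA, fell from 15.3, 13.5 and 19.5 CPM to 9.32, 9.10 and 8.87 CPM (-0.82 ± 0.19, adjusted p = 0.0125). POLG2 (ENSG00000256525), the accessory subunit of the mitochondrial DNA polymerase, fell from 23.4, 21.7 and 23.1 CPM to 15.6, 16.4 and 16 CPM (-0.51 ± 0.16, adjusted p = 0.0499), at the edge of the threshold. Neither makes mitochondrial messenger RNA. In edgeR the polymerase gene POLRMT (-0.31 ± 0.22, adjusted p = 0.354) did not pass. Nor did TFB2M (-0.54 ± 0.19, 0.0737), TEFM (-0.46 ± 0.21, 0.156) or TFAM (0.14 ± 0.16, 0.598) of the same list. Of 18 processing and decay genes 3 fell, with a median of -0.20. MTPAP (ENSG00000107951), the mitochondrial poly(A) polymerase, fell from 28.8, 29.8 and 27.4 CPM to 10.9, 20.7 and 17.4 CPM (-0.80 ± 0.22, adjusted p = 0.0277). FASTKD2 (ENSG00000118246), an RNA-binding protein of mitochondrial RNA granules, fell from 46.7, 53.0 and 57.1 CPM to 27.8, 40.1 and 33.6 CPM (-0.62 ± 0.18, adjusted p = 0.0359). The third was GRSF1, at -0.50. The groups did not overlap in any of the 4 genes given by library, nor in 36.7% of all tested genes. These 4 were also named because they passed the threshold, so this adds no separate support. TFB1M lost its call without triptolide replicate 3 (adjusted p = 0.0517), MTPAP without untreated replicate 1 or 2 or triptolide replicate 3 (0.0593 to 0.0822), POLG2 without any library but triptolide replicate 1 (0.0808 to 0.161) and FASTKD2 without any but triptolide replicate 2 (0.0529 to 0.117). With ribosomal protein scaling none of these 4 genes, TMEM126A or ECSIT passed (adjusted p of 0.102 to 0.550), and with the filter set to a mean of 5 CPM or more only TFB1M of the 6 did (0.0610 to 0.112 in the other 5). With library totals alone MTPAP, FASTKD2 and POLG2 were not past the threshold (0.0618 to 0.0967). POLG2 also lost its call with limma-voom (0.0515), without a low-count filter (0.114) and with mitochondrial genes out of the scaling (0.0501).

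The other complexes of the respiratory chain had 0 genes past the threshold in edgeR, DESeq2 and limma-voom. In edgeR 15.9% of all tested genes passed. Among 39 nuclear genes of complexes II to V none passed, with 33 negative values and a median of -0.18 (0.039 with ribosomal protein scaling). At an unadjusted p under 0.05 in edgeR there were 4 (1 higher, 3 lower), against 30.9% of all tested genes. ATP5F1B (ENSG00000110955), the catalytic beta subunit of ATP synthase and the most abundant of them, had 1143 ± 138 CPM untreated and 1091 ± 81.9 with triptolide (-0.07 ± 0.16, adjusted p = 0.815). None of the 6 mitochondrially encoded genes of complexes III to V passed, also not at an unadjusted p under 0.05, and all 6 values were positive (median 0.16). MT-CO1 (ENSG00000198804), of cytochrome oxidase, had 9835 ± 931 and 10665 ± 2068 CPM (0.12 ± 0.19, adjusted p = 0.716). The mitochondrial rRNA MT-RNR2 (ENSG00000210082) was at 6921 ± 1499 and 7402 ± 2685 CPM (0.10 ± 0.25, adjusted p = 0.830). Of 13 tested regulators of nuclear respiratory genes none passed with any of these tools (median -0.17). At an unadjusted p under 0.05 in edgeR there were 3, against 30.9% of all tested genes. The most abundant regulator, HCFC1 (ENSG00000172534), had 236 ± 43.7 and 219 ± 78.0 CPM (-0.11 ± 0.24, adjusted p = 0.787).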

How the data were processed

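RNA was captured by oligo(dT) and sequenced as paired reads of 150 bp, per the labels' protocols, with no word on strandedness. The table the authors deposited holds whole-number counts per Ensembl gene, with no normalization visible in the values. HISAT2 and featureCounts are named, without versions, per the submitters' processing notes; for the build, the annotation and the handling of reads over several genes the entry is: not given in the sources used here. Of 35716 IDs, 35639 were matched to symbols by ID.

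Genes were filtered with filterByExpr (15202 left), TMM-scaled, then fitted in R 4.3.3 with edgeR 4.0.16 (glmQLFit, glmQLFTest, the groups as the one term, Benjamini-Hochberg over all tested genes, threshold 0.05). The standard error is the absolute log2 fold change over the square root of F. CPM use TMM-scaled library sizes; log2 CPM for the GC description had a prior count of 2. Means are over 3 libraries per group, with SD. GC content, coding length and exon overlap came from GENCODE 29, which 99.2% of tested genes matched, and served no coordinates. Alternatives used DESeq2 1.42.0 and limma 3.58.1. The fit was tested on simulated data. Counting precision is set by 16302961 to 23262713 counts per library. Members, lists and tests were chosen with earlier results of these data known, so nothing that repeats those results is independent support, and no p was computed for a list.

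Values per library were given for the mitochondrially encoded members, members past the threshold, the nuclear core, members under a mean of 5 CPM, and in each nuclear group the smallest p in each direction and the most abundant member; NDUFS6 and NDUFB7 were added for their promoters. From each related list up to 2 genes per direction past the threshold were named, or the most abundant where none passed, plus the remaining called gene where 3 passed.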

Additional observations from a re-analysis of the deposited data

How the results depend on the processing

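The count of complex I members past the threshold, 1 in the reported fit, was 0 with library totals alone, with ribosomal protein scaling, with a mean of at least 5 CPM (which leaves NDUFV2 out) and with DESeq2, and 2 with the GC offset (NDUFV2 and MT-ND4L). It ran from 0 to 2 when each library was left out in turn: 0 without untreated replicate 2 or 3 or triptolide replicate 1 or 3, and 2 without triptolide replicate 2 (NDUFV2 and NDUFB3). With RLE size factors, mitochondrial genes out of the scaling, no low-count filter, limma-voom and the length offset it was 1, NDUFV2. Over all genes, 1527 were higher and 884 lower; a mean of at least 5 CPM gave 584 and 336, over fewer genes tested, ribosomal protein scaling gave 128 lower and the GC offset 1880 lower, and leaving out each library in turn gave 953 to 1580 higher and 407 to 1034 lower. Causes of these shifts were not tested. Over the members and settings, 668 of 677 values kept their direction where called and their side of the threshold, 7 lost the call, 2 gained it and 0 reversed as a called value; signs of uncalled members turned most often with ribosomal protein scaling (14 members) and without untreated replicate 3 (12). With a replicate block, 1523 genes were higher, 856 lower and 1 member passed. Under it POLG2 (adjusted p = 0.156) and FASTKD2 (0.0508) were not past the threshold. The replicate numbers were not shown to pair the libraries. Same-numbered libraries' deviations correlated at 0.0286, -0.0411 and -0.439, and no library correlated best with its own number. NDUFA7 and NDUFV2 had 31 and 72 counts over all libraries, which limits the precision of their values.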
